A study of Mus musculus with 14 samples.

Results

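H3K4me3 peak lists of sorted LSK cells were searched for 9 genes of the megakaryocyte and erythroid lineages: Gata1, Klf1, Epor, Gfi1b, Nfe2, Itga2b, Pf4, Vwf, and Zfpm1. They are 9 of the 21440 protein-coding genes with an annotated start and were listed by name, as known genes of these lineages, with earlier results of these data in view. LSK cells are the Lin-Sca1+cKit+ fraction of mouse bone marrow (BM), which holds hematopoietic stem cells and multipotent progenitors, and the lineage cocktail of the sort includes Ter-119, a marker of erythroid cells. The cells came from male C57BL/6J mice placed at 3 to 4 wk of age on a high-fat diet (HFD, 60% kcal from fat) or a low-fat diet (LFD, 10% kcal from fat) for 16 to 20 wk, and the labels name no transgene or other treatment. Each library was made from 10000 sorted cells by CUT&Tag (cleavage under targets and tagmentation), in which an antibody, here against histone H3 trimethylated at lysine 4, guides a transposase that cuts out the bound chromatin for sequencing. From HFD-LSK 3 peak lists and from LFD-LSK 4 were analyzed, 1 per library, and the labels do not say whether a library is 1 mouse or a pool, so P values measure only the spread between libraries. The study drew its LSK cells from more than 1 cohort of mice, and the labels of these 7 libraries do not give the cohort.

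H3K4me3 is laid down by the MLL/COMPASS methyltransferases around the starts of genes that are transcribed or held ready for transcription, and it is most regular at starts rich in CpG dinucleotides. Part of the stem cell pool is known to carry low-level megakaryocyte transcripts such as Vwf, Itga2b, and Pf4, which is called lineage priming. Erythroid genes come on mostly later, after the Sca1 marker is lost. GATA1 with its cofactor FOG1 (the product of Zfpm1), GFI1B, and NF-E2 are transcription regulators of both lineages, and KLF1 is one of the erythroid lineage. EPOR and integrin αIIb (from Itga2b) are the receptors through which these cells sense erythropoietin and fibrinogen, and PF4 and von Willebrand factor (from Vwf) are stored in platelets.

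The 9 genes fell into 3 kinds. A call means that a peak of a list touched the window from 1 kb before to 1 kb after the outermost annotated gene start. Such a call was made in at least 1 list for 5 genes: Nfe2 in 6 of 7, Klf1 and Zfpm1 in 5, Epor in 3, and Pf4 in 1. Itga2b had no call at its start, but it had peaks inside the gene in 4 lists. Gata1, Gfi1b, and Vwf had no peak at the start or anywhere in the gene in any of the 7 lists. Among all protein-coding genes, 51.3% were called at the start in at least 1 list and 20.2% in all 7, against 5 of the 9 genes here in at least 1 list and 0 of the 9 in all 7. With peaks inside the genes counted as well, 6 of the 9 genes had a peak in at least 1 list (57.3% of all coding genes) and 2 of the 9, Nfe2 and Zfpm1, in all 7 (23.7%).

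**Figure D1:**
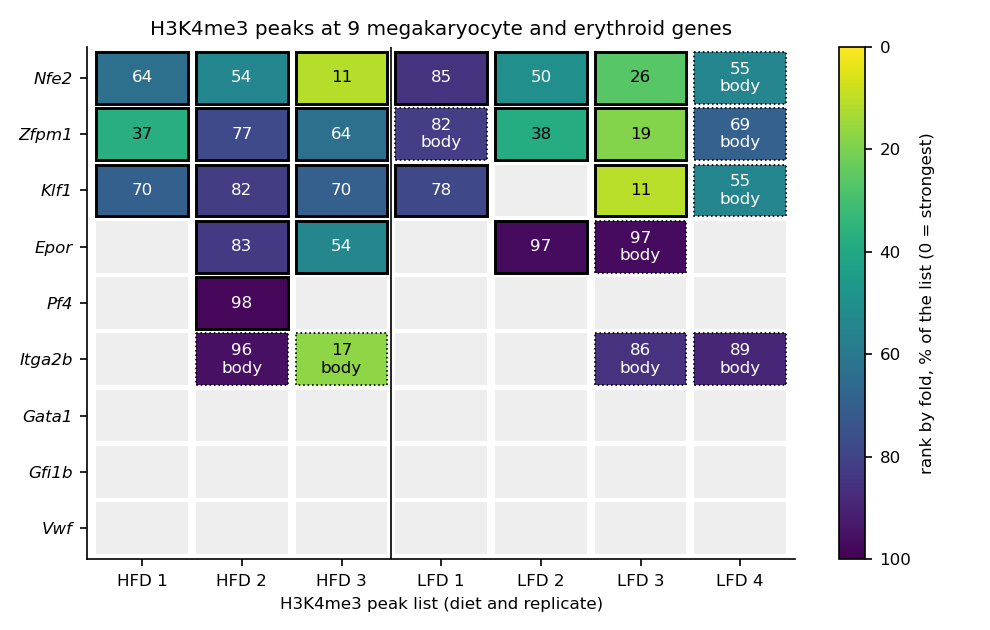
Peaks at the 9 genes (rows) in the 7 lists (columns). Numbers and colors give the rank of the peak by fold enrichment as a percent of its own list, with 0 as the strongest; solid frames are peaks within 1 kb of the start, dotted frames marked body are genes with peaks inside the gene only (the strongest is shown), and gray cells have no peak. Gata1, Gfi1b, and Vwf are gray in every list, and Nfe2 and Zfpm1 are filled in every list.

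The promoters of 4 of these genes are printed to show how different their starts are in sequence. Zfpm1 is shown because its start carried the widest H3K4me3 peak at the 9 genes, Klf1 because its peaks lay downstream of a CpG-poor start, and Gata1 and Gfi1b because no list had a peak there. Each is the 300-base RefSeq window of GRCm38.p6, from 250 bases before the start in the promoter table, written 5′ to 3′ along the gene. Capitals mark matches, on either strand, to short motifs. The motif of the GATA factors was searched as AGATAA and also with T as its first letter. That of the KLF and SP factors was CCNCNCCC, and that of the ETS factors was CCGGAA. That of NF-E2 and the AP-1 factors was TGANTCA, and overlapping matches are joined.
Zfpm1, chr8:122281891-122282190, plus strand: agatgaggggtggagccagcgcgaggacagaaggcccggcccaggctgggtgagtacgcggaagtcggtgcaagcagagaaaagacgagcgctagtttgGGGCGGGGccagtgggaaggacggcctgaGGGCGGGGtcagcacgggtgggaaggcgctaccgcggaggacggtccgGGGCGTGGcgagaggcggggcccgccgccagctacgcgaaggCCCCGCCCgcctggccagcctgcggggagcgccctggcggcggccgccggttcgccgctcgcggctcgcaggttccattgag
Klf1, chr8:84901732-84902031, plus strand: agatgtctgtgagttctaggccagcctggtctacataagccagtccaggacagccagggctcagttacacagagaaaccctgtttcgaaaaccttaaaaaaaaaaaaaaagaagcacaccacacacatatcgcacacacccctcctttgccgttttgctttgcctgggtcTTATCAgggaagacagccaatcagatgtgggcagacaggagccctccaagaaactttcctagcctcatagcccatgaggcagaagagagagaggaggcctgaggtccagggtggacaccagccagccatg
Gata1, chrX:7967861-7968160, minus strand: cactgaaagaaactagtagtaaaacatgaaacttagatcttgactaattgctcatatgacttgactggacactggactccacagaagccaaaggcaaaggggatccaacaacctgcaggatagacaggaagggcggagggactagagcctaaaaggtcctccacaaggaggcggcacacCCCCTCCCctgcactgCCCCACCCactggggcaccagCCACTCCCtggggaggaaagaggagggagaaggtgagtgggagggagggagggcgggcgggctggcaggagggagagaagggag
Gfi1b, chr2:28621933-28622232, minus strand: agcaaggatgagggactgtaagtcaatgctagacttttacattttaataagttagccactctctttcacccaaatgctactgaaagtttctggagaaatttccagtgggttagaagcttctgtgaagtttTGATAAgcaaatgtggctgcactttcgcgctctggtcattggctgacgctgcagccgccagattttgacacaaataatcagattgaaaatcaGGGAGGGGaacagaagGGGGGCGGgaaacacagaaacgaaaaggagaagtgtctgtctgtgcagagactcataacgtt

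A window is given in the promoter table for 7 of the 9 genes, and for Nfe2 and Vwf none is given. The Zfpm1 window holds 37 CpG, more than 93.1% of the 17492 promoters compared, with a G+C content of 73.7%. The other 6 are CpG-poor, with 3 CpG each at Klf1 and Pf4, 4 at Gata1, 6 at Itga2b, and 7 each at Epor and Gfi1b. Over all promoters, the median was 3 CpG where no list had a peak within 1 kb of the window's start, 20 where 1 to 6 lists had a peak, and 25 where all 7 had a peak. Gata1, Gfi1b, and Itga2b thus lay within the middle 50% of the promoters without a call, from 1 to 8 CpG. Klf1, Epor, and Pf4 lay below the 13 to 27 CpG that bound the middle 50% of promoters called in 1 to 6 lists. The start peaks of Klf1 and Epor did not cover these windows, since they began 663 to 821 bp and 676 to 744 bp downstream of the start. Pf4 had 1 call, near the bottom of its list.

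A GATA match was found in 4 of the 7 windows, Klf1, Epor, Gfi1b, and Pf4, and in 16.2% of all promoters. In the Klf1 window, the match TTATCA lies at −80 to −75 from the start (position 0), and in the Gfi1b window TGATAA lies at −120 to −115. KLF matches were found in 5 of the 7, Gata1, Epor, Gfi1b, Itga2b, and Zfpm1, and in 55.8% of all promoters. Gata1 has 3 separate KLF matches between −71 and −27, and Zfpm1 has 4 between −151 and −25. An ETS match was found at Pf4 alone among the 7, and in 19.1% of all promoters, and an NF-E2 match in none of the 7, against 7.03% of all promoters. These are matches of letters in a short window and say nothing about whether a factor binds there.

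**Figure D2:**
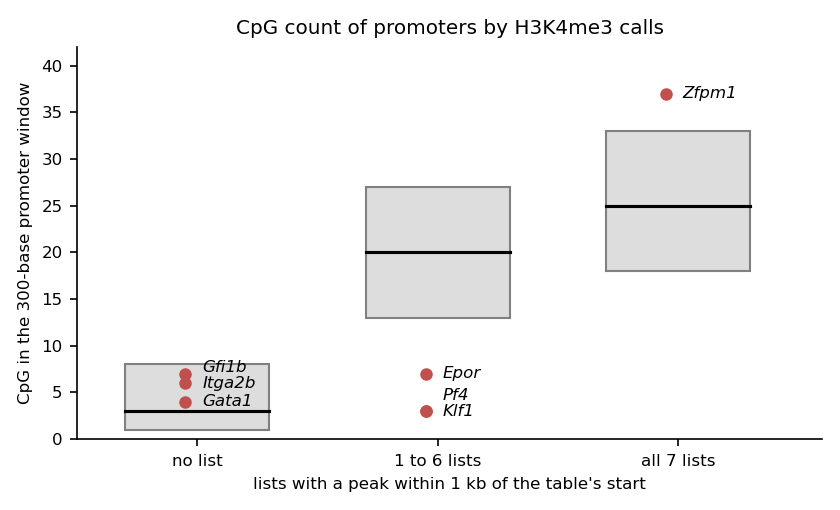
CpG count in the 300-base promoter window (vertical axis) of the 7 genes with a window (red points), grouped by the number of lists with a peak within 1 kb of that window's start (horizontal axis). Gray boxes span the middle 50% of all 17492 promoters in each group, with the median as a black line. Zfpm1, with 37 CpG, lies above the box of promoters called in all 7 lists, and Klf1, Pf4, and Epor lie below the box of their group. The peaks called for Klf1 and Epor lay downstream of the window.

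Nfe2 encodes p45, the hematopoietic subunit of the dimer NF-E2, which is needed for platelet release. The gene lies on the minus strand of chromosome 15 from 103248212 to 103258403. Its start peak was found in each HFD-LSK list and in LFD-LSK replicates 1, 2, and 3, with summits from −110 to 100 bp, counted from the start along the gene. The start peak was 516, 1251, and 775 bp wide in HFD-LSK replicates 1 to 3 and 368, 765, and 1031 bp wide in LFD-LSK replicates 1 to 3. By fold enrichment, it ranked 63.5%, 54.3%, and 11.2% of the way down the HFD-LSK lists and 85.4%, 50.2%, and 26.2% down the LFD-LSK lists, so that the strongest and the weakest placement were in different diets and the ranges overlapped. The summits held 33, 33, and 20 fragments in HFD-LSK and 33, 27, and 25 in LFD-LSK. LFD-LSK replicate 4 had no start peak.

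Nfe2 also carried peaks further inside the gene, 13 over the 7 lists. A peak with its summit from 2942 to 3188 bp downstream of the start was found in 6 lists, including LFD-LSK replicate 4, and LFD-LSK replicate 1 was the list without it. In 3 of the 5 lists with both, namely HFD-LSK replicates 1 and 2 and LFD-LSK replicate 2, this inner peak stood nearer the top than the start peak, at 35.5%, 43.3%, and 26.4% of the list. In HFD-LSK replicate 2, the inner peak was 2865 bp wide, and 71 fragments covered its summit, the most of any peak at the 9 genes. The other inner peaks, in HFD-LSK replicates 2 and 3 and LFD-LSK replicates 2 and 4, had summits from 4576 to 7375 bp downstream. In the GENCODE annotation of GRCm39, Nfe2 spans 10305 bp. Its coding transcripts there start at many places inside the gene, from 2964 to 6888 bp downstream of the outermost start, with 3140 bp among them. Those distances are from the other build and were not converted.

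Klf1 encodes the erythroid Krüppel-like factor, an activator of adult globin and other red cell genes. It lies on the plus strand of chromosome 8 from 84901982 to 84905291. Its start was called in each HFD-LSK list and in LFD-LSK replicates 1 and 3, but the summit stood 1216 to 1237 bp downstream in each, inside the gene, and only the near edge, from 663 to 821 bp, reached the 1 kb window. In LFD-LSK replicate 4, the peak began at 1131 bp and was counted as inside the gene, and LFD-LSK replicate 2 had no peak in the gene. The start peak ranked 69.8%, 82.2%, and 70.1% down the HFD-LSK lists, and 78.2% and 10.9% down the lists of LFD-LSK replicates 1 and 3. The LFD-LSK replicate 3 peak, with rank 1125 of 10352, thus stood nearer the top of its list than the other 4 did in theirs. No annotated Klf1 transcript in GENCODE starts more than 47 bp downstream of the outermost start. With 500 bp in place of 1 kb, Klf1 and Epor had no call in any list.

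Gata1, the master regulator of red cell and megakaryocyte maturation, had no peak in any list from 7959260 to 7976663 on chromosome X or within 1 kb of its start. The start in the promoter table lies 8753 bp inside the outermost one, and it was not called in any list either. Gfi1b, a repressor needed for both lineages (chromosome 2, 28609450 to 28621982), was likewise without a peak. Gata2, the related factor of stem and progenitor cells, was called at its start in all 7 lists, with ranks from 3952 to 7375. Genes without a call may still carry the mark: the weakest summits in the lists held 16, 8, and 4 fragments in HFD-LSK replicates 1 to 3 and 21, 10, 8, and 9 in LFD-LSK replicates 1 to 4, and weaker marking would not be seen. A mark carried by a small share of the cells and weak marking of all of them cannot be told apart.

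Zfpm1 (FOG1) lies on the plus strand of chromosome 8 from 122281856 to 122337862. Its start peak was 3986, 4268, and 2312 bp wide in HFD-LSK replicates 1 to 3 and 3948 and 2675 bp wide in LFD-LSK replicates 2 and 3. Each was among the widest peaks of its own list: 0.0327%, 0.802%, and 1.34% of the peaks in the HFD-LSK lists and 0.114% and 0.947% in those LFD-LSK lists were wider. Their summits lay from −323 to 173 bp of the start. By fold enrichment the same peaks were less extreme and ranked 37.2%, 77.4%, and 63.6% down the HFD-LSK lists and 38.4% and 18.8% down the lists of LFD-LSK replicates 2 and 3.

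In LFD-LSK replicates 1 and 4, the shortest lists, only narrow Zfpm1 peaks were called, 458 and 242 bp wide, which began 1239 and 1241 bp downstream of the start. Both overlap the stretch that the wide peaks covered in the other lists. Measured from the start in the promoter table, which is 285 bp further downstream, these peaks fell inside the 1 kb window, and Zfpm1 was called in all 7 lists. The start of a noncoding gene, Gm39269, lies 3318 bp inside Zfpm1 and was covered by the wide peaks of HFD-LSK replicate 2 and LFD-LSK replicate 2, and by separate narrower peaks in HFD-LSK replicate 3 and LFD-LSK replicate 3. No other gene starts within 1 kb of the outermost start of any of the 9 genes.

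**Figure D3:**
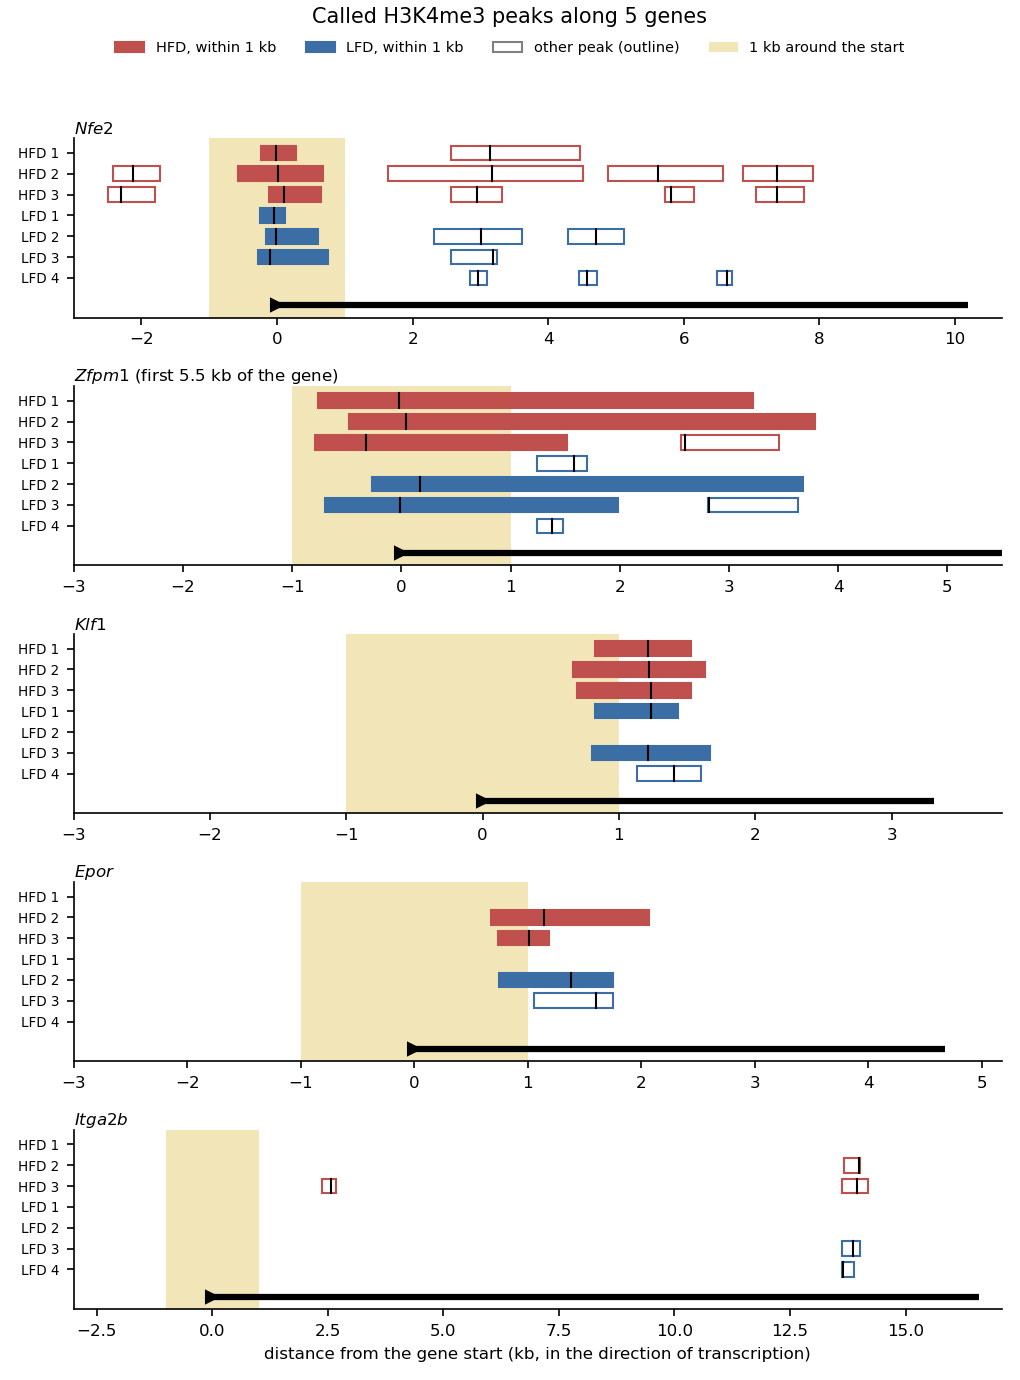
Called peaks along Nfe2, Zfpm1, Klf1, Epor, and Itga2b in each list (rows; red HFD-LSK, blue LFD-LSK), by distance from the gene start in kb along the direction of transcription (horizontal axis). Filled boxes touch the shaded 1 kb on either side of the start, open boxes are other peaks, black ticks are summits, and the black bar is the gene. The wide filled boxes of Zfpm1 start before the gene, those of Klf1 and Epor lie at the downstream edge of the shading, and Nfe2 shows a start peak and an inner peak near 3 kb.

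The erythropoietin receptor gene Epor (minus strand of chromosome 9, 21958897 to 21963576) had a start call in 3 lists, HFD-LSK replicate 2, HFD-LSK replicate 3, and LFD-LSK replicate 2. The peaks were 1393, 448, and 1008 bp wide in that order, began 676 to 744 bp downstream of the start, and had their summits 1146, 1008, and 1385 bp downstream. They were weak, at 83.1%, 53.5%, and 96.9% of their lists, with 16, 8, and 12 fragments at the summit, where the weakest summit called in each list held 8, 4, and 10. LFD-LSK replicate 3 had a peak from 1058 bp that missed the window, at 96.9% of its list. GENCODE has a coding Epor transcript that starts 1019 bp inside the outermost start, again in the other build. Peaks from 7075 to 8192 bp downstream of the Epor start in 6 lists lie beyond the gene, at the starts of Swsap1 and the noncoding Gm45914, and were not counted.

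Itga2b encodes integrin αIIb, known as CD41, the surface marker of megakaryocytes and of some stem cells (minus strand of chromosome 11, 102453297 to 102469883). Its start was not called in any list. Near the far end of the gene, 13618 to 14181 bp downstream of the start, HFD-LSK replicates 2 and 3 and LFD-LSK replicates 3 and 4 had a peak of 346, 564, 394, and 259 bp. Of these peaks, 3 stood low in their lists, at 95.7%, 85.9%, and 89.1%, and the peak of HFD-LSK replicate 3 stood at 17%. The summits held only 11 to 13 fragments. HFD-LSK replicate 3 had a further Itga2b peak of 301 bp, with its summit 2565 bp downstream of the start. In the GENCODE annotation of GRCm39, Itga2b spans 19559 bp. Several of its transcripts without a defined coding sequence start inside the gene there, the furthest 13939 bp downstream of the outermost start. That distance is from the other build and was not converted.

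Of the platelet proteins, Pf4, a chemokine of the alpha granules (plus strand of chromosome 5, 90772435 to 90773383), was called in HFD-LSK replicate 2 alone. That peak was 374 bp wide, with its summit 186 bp downstream of the start, 10 fragments there, and rank 12856 of 13094 (98.2%), near the bottom of the longest list. With a −log10 q of at least 5 required, Pf4 was not called. Vwf, which carries the adhesion protein that tethers platelets to injured vessel walls, had no peak across its 133732 bp (chromosome 6, 125552948 to 125686679).

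By median placement over the lists in which they were called at the start, the genes stood in the order Zfpm1 (38.4% of the list, 5 lists), Nfe2 (52.2%, 6 lists), Klf1 (70.1%, 5 lists), Epor (83.1%, 3 lists), and Pf4 (98.2%, 1 list). From Zfpm1 to Epor, the ranges of neighbors overlapped. They were 18.8 to 77.4% for Zfpm1, 11.2 to 85.4% for Nfe2, 10.9 to 82.2% for Klf1, and 53.5 to 96.9% for Epor. The 1 placement of Pf4, at 98.2%, lay outside the Epor range. A test of neighbors was fixed for genes called in all 7 lists, and none of the 9 was. With 3 kb around the start, Nfe2 and Zfpm1 qualified, with mean ranks of 3703.9 and 5436.9. They did not differ beyond their spread (exact sign-flip test over 7 lists, P = 0.125). For Nfe2, this setting took the inner peak near 3 kb in HFD-LSK replicates 1 and 2 and LFD-LSK replicates 2 and 4. For Zfpm1, it took the narrow downstream peaks in LFD-LSK replicates 1 and 4. The test therefore did not compare start peaks alone.

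The diet comparison asks whether HFD feeding alters H3K4me3 at these genes in LSK cells. At the start, 3, 5, and 4 of the 9 genes were called in HFD-LSK replicates 1 to 3, against 2, 3, 3, and 0 in LFD-LSK replicates 1 to 4. The share of all coding starts called in the same lists was 39%, 49.2%, and 43% in HFD-LSK and 32.8%, 42.7%, 40.8%, and 28.5% in LFD-LSK. The HFD-LSK lists hold 9186, 13094, and 11977 peaks and the LFD-LSK lists 7447, 10572, 10352, and 6921, so that the list with no call at the 9 genes is the shortest and the list with the most calls is the longest.

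**Figure D4:**
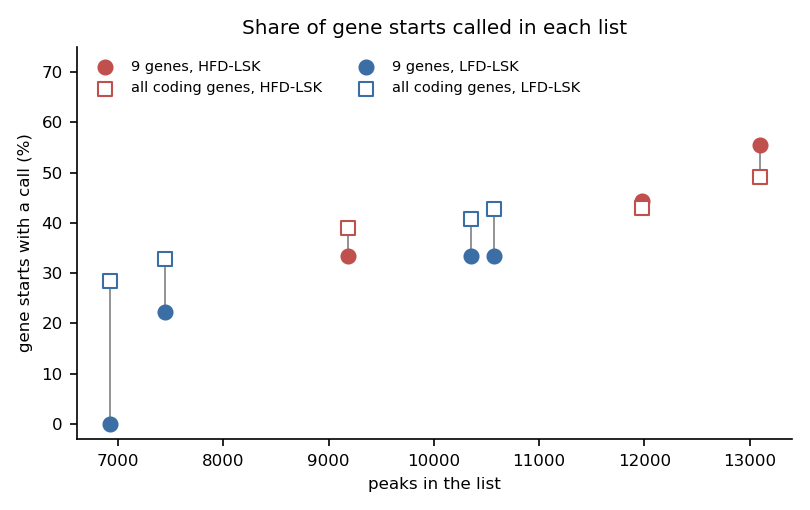
Percent of gene starts called in each list (vertical axis) against the number of peaks in the list (horizontal axis), for the 9 genes (filled circles) and for all 21440 coding genes (open squares), red for HFD-LSK and blue for LFD-LSK; gray lines join the points of a list. Both shares are higher in the longer lists, from 0 of 9 genes in the list of 6921 peaks to 5 of 9 in the list of 13094.

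Each of the 5 genes with a start call had a call in more of the HFD-LSK lists, as a share, than of the LFD-LSK lists: Klf1 and Zfpm1 in 3 of 3 against 2 of 4, Nfe2 in 3 of 3 against 3 of 4, Epor in 2 of 3 against 1 of 4, and Pf4 in 1 of 3 against 0 of 4. For Epor, the difference did not pass Fisher's exact test (P = 0.486, where 3 calls allow 0.0286; adjusted P = 1). For the other 4 genes, the test could not have passed: by Fisher's exact test, 5 calls in 7 lists allow no P below 0.143 (Klf1 and Zfpm1, P = 0.429), and 1 or 6 calls none below 0.429 (Pf4, P = 0.429, and Nfe2, P = 1). Over the 6665 coding genes called in some but not all lists, 83.2% had the larger share in HFD-LSK and 0.495% had an unadjusted P under 0.05, so the direction at the 9 genes was that of most genes. When the 6921 strongest peaks were taken from each list, the direction turned for 3 of the genes: Klf1 and Zfpm1 were called in 1 of 3 HFD-LSK against 2 of 4 LFD-LSK lists, and Nfe2 in 2 of 3 against 3 of 4. Epor was then called in 1 of 3 against 0 of 4, Pf4 in none, and 49% of 7605 genes had the larger share in HFD-LSK.

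Ranks and widths at the start were to be tested for genes called in all 7 lists, and 0 of the 9 genes met this. With lists that lack a call given the middle of the ranks below the list's end, the 5 genes called at least once had P from 0.229 (Pf4) to 1 (Zfpm1) by exact permutation over the 35 splits of 7 lists into 3 and 4, two-sided, and adjusted P from 0.979 to 1. These ranks, and above all the rank given to a list without a call, depend on the length of the list: Pf4, whose 1 call is in HFD-LSK, had the mean rank further from the top there (12699 against 11742). Of all 10997 genes tested this way, 2.54% had an unadjusted P under 0.05. The smallest P that this design allows is 0.0286.

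The length of each gene under peaks, at the start and inside together and 0 where a list has none, gave a value in every list. Nfe2 had 2416, 6844, and 2660 bp in HFD-LSK replicates 1 to 3 and 368, 2889, 1708, and 723 bp in LFD-LSK replicates 1 to 4. Its means were 3973 ± 2489 bp (SD, n = 3) in HFD-LSK and 1422 ± 1130 bp (SD, n = 4) in LFD-LSK, with the 2889 bp of LFD-LSK replicate 2 inside the HFD-LSK range (exact permutation test, P = 0.114). Without HFD-LSK replicate 2, the difference fell from 2551 to 1116 bp.

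Zfpm1 had 3986, 4268, and 3217 bp in HFD-LSK and 458, 3948, 3493, and 242 bp in LFD-LSK, so that LFD-LSK replicates 2 and 3 lay among the HFD-LSK values and replicates 1 and 4 far below them (means 3824 ± 544 bp, SD, n = 3, and 2035 ± 1957 bp, SD, n = 4; exact permutation test, P = 0.257). Klf1 had 708, 966, and 833 bp in HFD-LSK and 615, 0, 862, and 469 bp in LFD-LSK (means 835.7 ± 129 bp, SD, n = 3, and 486.5 ± 362.6 bp, SD, n = 4; exact permutation test, P = 0.171). Epor, Itga2b, and Pf4 had P = 0.743, 0.457, and 0.429 by the same exact permutation test, and the adjusted P of the 6 genes ran from 0.694 to 0.856. The mean was longer in HFD-LSK for each of the 6 genes, as for 92.5% of the 12284 genes with a peak, of which 2.85% had an unadjusted P under 0.05. At Epor, Itga2b, and Klf1 the size or direction also rested on 1 list, and Pf4 had its only peak, of 374 bp, in HFD-LSK replicate 2. Without HFD-LSK replicate 2, the HFD minus LFD difference of Epor turned from 188.9 to −200.8 bp. That of Itga2b went from 240.4 to 9.75 bp without HFD-LSK replicate 3, and that of Klf1 from 349.2 to 187 bp without LFD-LSK replicate 2. With the 6921 strongest peaks of each list, Klf1 and Zfpm1 had the longer mean in LFD-LSK, with HFD minus LFD differences of −250.5 and −502.1 bp, and the difference of Nfe2 was 1052 bp.

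**Figure D5:**
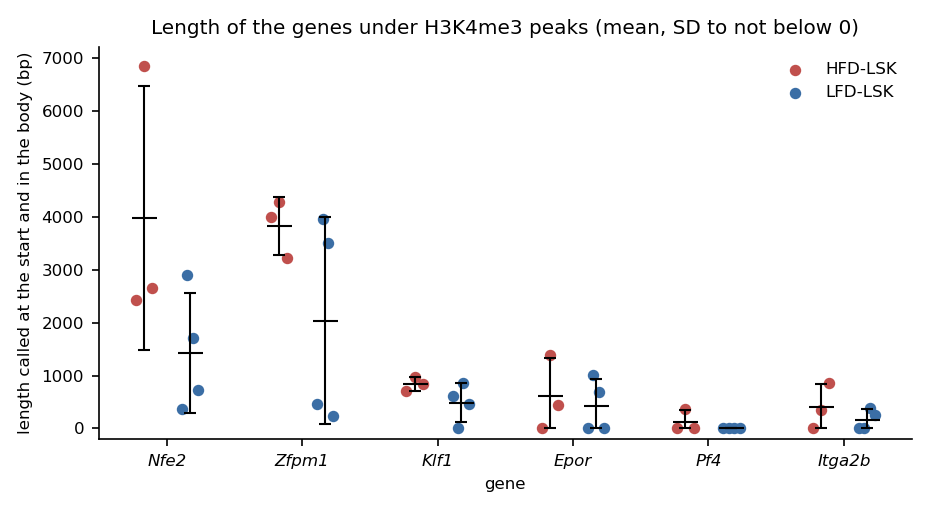
Length of 6 genes under H3K4me3 peaks, in bp, at the start and inside the gene together (vertical axis), for each HFD-LSK (red) and LFD-LSK (blue) list; black bars are the mean and 1 SD, drawn to not below 0. The diets overlap at every gene; at Pf4, 1 HFD-LSK list has 374 bp and the other 6 lists have 0, and Klf1 and Zfpm1 each have LFD-LSK values near those of HFD-LSK.

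Other genes of the 2 lineages were counted in the same way, from lists that name well-known members. Of 22 other megakaryocyte and platelet genes, 12 were called in at least 1 list and 1 in all 7, Rap1b, a small GTPase of platelet integrin activation with ranks from 771.5 to 4157.5. Of 32 other erythroid genes, 14 were called in at least 1 list and 3 in all 7. These were Car2, Alad, and Epb41, of which Car2, a carbonic anhydrase, had the mean rank nearest the top (1474) and Alad, an enzyme of heme synthesis, the furthest (5034). Alas2, Slc4a1, and the globin genes, whose near-identical copies make their calls uncertain, were not called in any list, and neither were the platelet receptor genes Gp1ba, Gp9, and Gp6. Of 22 regulators and partners shared by the 2 lineages, 19 were called in at least 1 list and 11 in all 7, among them Gata2, Tal1, Fli1, and Bcl11a, and the mean rank was nearest the top for Bcl11a (1319) and furthest for Gata2 (5289). Lmo2, Ldb1, and Mafg were not called at their outermost start, but Lmo2 and Ldb1 had peaks inside the gene. For all coding genes, the shares are the 51.3% and 20.2% given above. None of the genes in the 3 lists had a Fisher's exact P under 0.05 for calls by diet, but only genes with 3 or 4 calls could have passed. In the order given, 11, 10, and 8 genes had the larger share of calls in HFD-LSK, and 0, 1, and 0 in LFD-LSK. That was the direction of 83.2% of all coding genes called in some but not all lists.

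Among the 15 genes of these lists called in all 7 lists, 1 differed in rank at an unadjusted P under 0.05. Ikzf1, which encodes the lymphoid and erythroid regulator Ikaros, ranked 4077, 11351, and 3937.5 in HFD-LSK and 512.5, 200.5, 646, and 1547 in LFD-LSK, with no overlap (exact permutation test, P = 0.0286, the smallest possible; adjusted P = 0.746). Over the 4332 genes called in all 7 lists, the median HFD minus LFD difference in mean rank was 698.4, against 5729 for Ikzf1. Of these genes, 3.83% passed that unadjusted threshold and 0 passed after adjustment.

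Markers of LSK cells were called in at least 1 list for 8 of 10 genes and in all 7 for Kit, Cd34, Mecom, and Meis1. Ly6a, which encodes the Sca1 used in the sort, and Slamf1 were not called. Of 8 mature erythroid markers, 1 was called in 1 list, and of 8 megakaryocyte and platelet markers, 2 were called in 1 or more lists and 0 in all 7. None of the 5 B cell, 4 T cell, and 2 NK cell markers was called at its start, and 1 of 7 myeloid markers was called in 1 list. Of all coding starts, 51.3% were called in at least 1 list and 20.2% in all 7. The number of mature megakaryocyte markers called was 1, 2, and 1 in HFD-LSK replicates 1 to 3 and 0, 0, 1, and 0 in LFD-LSK replicates 1 to 4. The share of all coding starts called in these lists was likewise higher in most HFD-LSK lists: 39%, 49.2%, and 43%, against 32.8%, 42.7%, 40.8%, and 28.5% in LFD-LSK. The part of these markers in the calls at the 9 genes was not tested.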

How the data were processed

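H3K4me3 peak lists of 7 LSK libraries were analyzed; the 7 IgG libraries were not analyzed here. The sample titles say CUT&RUN, and the protocol and the study say CUT&Tag. Per the labels, the authors used Trim Galore, Bowtie2, Picard, MACS2, bedtools, HOMER, and featureCounts with GRCm38, whereas the methods name SEACR and GRCm39; versions of the tools are not given in the sources used here. For each peak, the authors deposited a score, a fold (the ratio of summit to local background), and −log10 p and −log10 q values. The lists were called per library and were checked against GRCm38 gene starts.

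Fold depends on its own library and was compared only as a rank within a list. Gene starts were those of RefSeq GRCm38.p6 (21440 of 21887 coding genes), with strand from the promoter table for 17492 and from GENCODE by symbol for 3948, including Nfe2 and Vwf. A start was called when a peak touched the 1000 bp on either side, and peaks at 1 start were summed in width. Summit fragments were recovered by inverting the MACS2 formulas (100% of peaks solved in each list), and depth is otherwise unknown. Calls were tested by Fisher's exact test, and ranks and lengths by exact permutation, two-sided, with Benjamini-Hochberg adjustment over all genes tested. The steps were tested on simulated data. Python 3.11.15, NumPy 2.4.6, pandas 2.3.3, and SciPy 1.17.1 were used.

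The 9 genes, the gene lists, and the tests were chosen with earlier results of these data known. Named from each list were the genes with the highest and lowest mean rank among those called in all 7 lists and any with an unadjusted P under 0.05; others named were chosen after their values were seen. Genes most like a member in rank were to be named for members called in all 7 lists, and there were none. The covered length was added after the data were seen.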

Additional observations from a re-analysis of the deposited data

How the results depend on the processing

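The counts of members past a threshold by diet were 0 in every alternative run, which says little about stability: for calls, Fisher's exact test could have passed in 6 of the 56 tests of a member, and rank and width had no member to test in most settings. The count of members called at the start in all 7 lists was 0, and it was 2 with 3000 bp around the start, 2 with peaks in the gene body added, and 1 with any annotated start used; without 1 library at a time, it ran from 0 to 1, the 1 being Nfe2 without LFD-LSK replicate 4. The settings with the gene body and with any annotated start were chosen after seeing the data. With the lists trimmed to equal length by fold, the share of lists called turned to −16.7 percentage points (HFD minus LFD) for Klf1 and Zfpm1 and −8.33 for Nfe2, and the covered length to −250.5 bp for Klf1 and −502.1 bp for Zfpm1. Without 1 library at a time, the covered length of Epor ran from −200.8 bp, without HFD-LSK replicate 2, to 495.8 bp.

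The replicate block, on pairs 1 to 3, had 0 members to test for rank and width at 1 kb and gave a count of 0; with 3000 bp around the start, exact sign-flip P values for Nfe2 and Zfpm1 ran from 0.25, the smallest that 3 pairs allow, to 0.75. The labels do not say whether same-numbered libraries were paired, and the paper states that its own peak comparison accounted for batch and pairing. Correlations of rank deviations over 4332 genes were 0.0729, 0.0184, and −0.0120 for same-numbered libraries. For differently numbered libraries, they ran from −0.0766 to 0.0886. These values do not settle whether libraries were paired.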
